A study of Xenopus tropicalis with 84 samples.

Results

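The mRNAs of the translation initiation factors and of the aminoacyl-tRNA synthetases were followed through early development of *Xenopus tropicalis*, a frog whose eggs carry a stock of maternal mRNA and begin to transcribe their own genome during the blastula stages. The members were the rows of the gene table whose symbol starts with eif and a digit, or is that of a tRNA synthetase of the cytoplasm or the mitochondria. They numbered 86 rows with 84 symbols among 34192 genes, 49 of them initiation factors and 37 synthetases. The symbols eif4e2 and cars2 each stand on 2 rows with different identifiers. One cars2 row (gene25173) stayed near 0 TPM in all libraries and failed the filter on low values, which asked for 6 consecutive time points above 0.4 TPM in at least 1 condition, so that 85 members were tested among 15011 genes.

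Uninjected control (UIC) embryos were compared with embryos injected with 10 ng of a morpholino oligonucleotide (MO) that covers the translation start of *nup107*, which encodes a nucleoporin of the nuclear pore. Both series were whole embryos from in vitro fertilisation, with no other treatment given in the labels, and were collected every 0.5 h from 2 to 12 hours post fertilisation (hpf), with 10 embryos in each polyA+ library. There were 21 libraries per condition, 1 for each time point, so no single time point has a replicate. The controls received no injection, so the effect of *nup107* depletion and that of the injection itself cannot be told apart.

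Eukaryotic initiation factors bring the initiator tRNA and the small ribosomal subunit to the capped end of an mRNA and to its start codon. Factors eIF1, eIF1A, eIF2, eIF3 and eIF5 assemble on the small subunit, the eIF4 group binds the cap and unwinds the leader, and eIF5B joins the large subunit. Each aminoacyl-tRNA synthetase charges its tRNA with one amino acid, and mitochondria use a largely separate nuclear-encoded set, here the genes whose symbol ends in 2. In mammals *gars* and *kars* encode both forms. In the early frog embryo, most protein is made from stored mRNAs, and control of their poly(A) tails and caps is a known feature of this period.

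Values are in TPM, a relative abundance corrected for transcript length, and differences are on the log2(TPM + 1) scale, which understates the change of low genes. Averages were taken over 3 windows of 7 time points (2 to 5, 5.5 to 8.5 and 9 to 12 hpf), and SDs are over the 7 time points of a window and include change over time. The deposited table was taken as polyA+ from its name, but the table named for ribozero libraries of the series holds identical values and the columns name neither kind, so the values could be those of the ribozero libraries. PolyA+ libraries of whole embryos do not separate a change in RNA level from a change in tail length, nor fewer cells of a type from less RNA per cell. Read depth is unknown, since TPM keep no counts. ERCC spike-ins took 4.46% to 6.35% of the TPM of a library. The zygotic genes *gsc*, *t*, *chrd* and *mixer* averaged under 0.1 TPM at 2 to 5 hpf in both conditions, and the maternal *gdf1* fell from 192 TPM at 2 to 5 hpf to 42.6 TPM at 9 to 12 hpf in UIC. The targeted *nup107* mRNA averaged 204 TPM in UIC and 207.5 TPM in MO at 2 to 5 hpf, which does not measure its depletion, since this MO acts on translation. At 5.5 to 8.5 hpf it averaged 160 TPM in UIC and 203 TPM in MO, and at 9 to 12 hpf 40.7 and 95.2 TPM.

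The members together took 1.497% to 1.92% of the TPM of a library. In UIC their summed level went from 15381 ± 194.5 TPM (SD, 7 time points) at 2 to 5 hpf to 19016 ± 210 TPM at 9 to 12 hpf, a ratio of 1.24, and in MO the ratio was 1.23. The 3 most abundant members, by the mean over 42 libraries, were *eif1* at 2582 TPM, *eif1b* at 2105 TPM and *eif1ax* at 1531 TPM, all small factors that help the scanning ribosome to select the start codon. The 3 least abundant of those tested were the mitochondrial asparaginyl-tRNA synthetase *nars2* at 2.32 TPM, the eIF2 kinase *eif2ak4*, known as GCN2, at 3.98 TPM and the cytoplasmic histidyl-tRNA synthetase *hars* at 4.55 TPM.

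The first comparison was between windows within each condition, and asked how these mRNAs change as the maternal stock gives way to the gastrula. In UIC, 17 of 85 members were higher and 13 lower at 9 to 12 than at 2 to 5 hpf (limma, adjusted p under 0.05 and a difference of at least 1). Of all genes tested, 16.7% were called higher and 26.4% lower. In MO, 18 were higher and 13 lower, against 16.5% and 27.3% of all genes. The call was the same in both conditions for 80 of 85 members, with 16 higher and 12 lower in both. The share of all genes with the same call in both conditions was not counted, so whether 80 of 85 is particular to the members was not tested. The median change of the members in UIC was 0.12, while that of all genes was -0.26. In UIC, the values of the late window lay all above those of the early window for 29 members and all below for 15, against 21.4% and 30.9% of all genes. In MO these numbers were 32 and 17, against 21.7% and 33.3%. These p-values compare time points, which are not replicates and are not independent of their neighbours. Scaling by median ratios moved the median of all genes in UIC from -0.26 to 0.13, and the members then split into 30 higher and 8 lower. All genes then split into 3430 higher and 2680 lower of 15011.

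**Figure D1:**
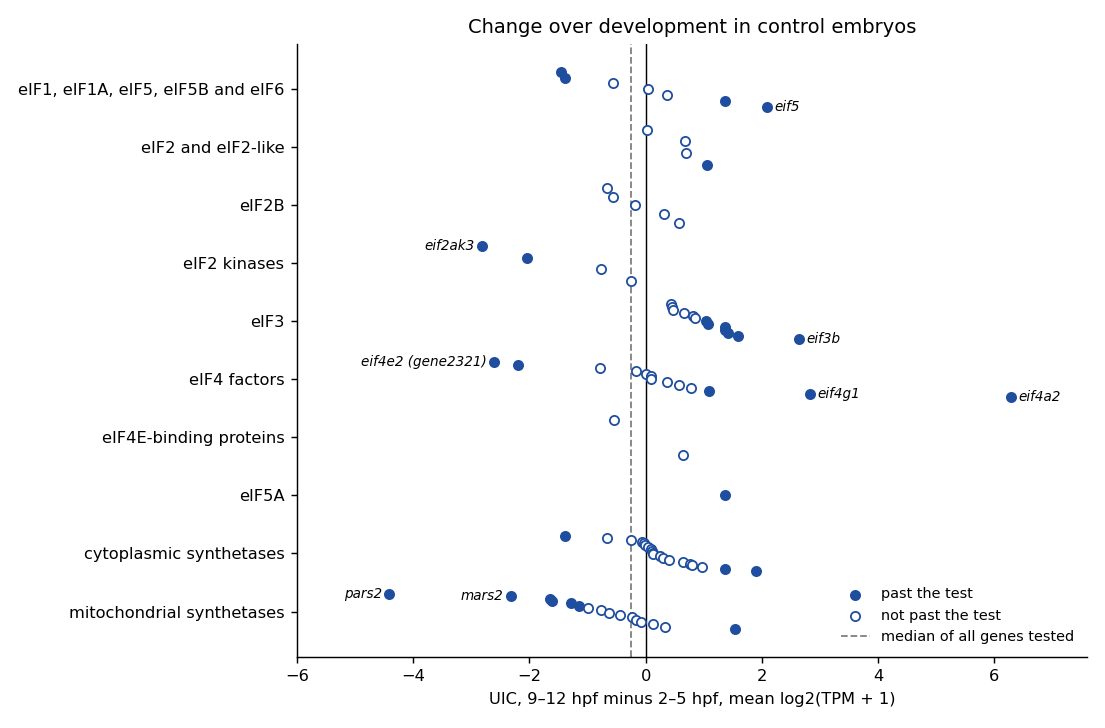
Change from 2–5 hpf to 9–12 hpf in UIC for 85 members, as the difference of mean log2(TPM + 1) on the x axis, with 1 point per member in rows by role and the median of all genes tested as a dashed line. All 13 eIF3 points lie above 0, 13 of 16 mitochondrial synthetases lie below 0 (9 of 16 with median ratios), and *eif4a2* stands farthest right at 6.28.

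The largest rise among members was that of *eif4a2*, which encodes one of the RNA helicases that unwind mRNA leaders. Its UIC level ranged from 1.02 to 1.76 TPM in the 7 libraries of 2 to 5 hpf and from 135 to 208.7 TPM in those of 9 to 12 hpf, so that the windows did not overlap. The level first reached 5% of its highest value at 6.5 hpf and 50% at 8.5 hpf, at the same time points in UIC and in MO. The difference was 6.28 ± 0.56 (SE) in UIC, with an adjusted p of 2.99e-09, and 6.30 ± 0.56 in MO, with an adjusted p of 2.81e-09. The paralogue *eif4a1* was already present at 313 ± 34.2 TPM in the early UIC window and rose to 676 ± 135 TPM, so that *eif4a2* came to make up 21.6% of the summed TPM of *eif4a1* and *eif4a2* at 9 to 12 hpf, from 0.434% at 2 to 5 hpf. The third helicase gene, *eif4a3*, whose protein is best known from the exon junction complex, stayed the most abundant of the 3 and went from 1038 ± 42.1 to 1547 ± 66.3 TPM, a difference of 0.57 that did not reach the minimum of 1 without scaling. Of the 13 eIF4 factors, 3 were called higher in UIC without scaling and 5 with median ratios.

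The eIF1 genes exchanged rank during gastrulation. The UIC level of *eif1* had its highest value of 3831 TPM at 2 hpf, a median of 3096 TPM over 21 libraries and its lowest value of 900 TPM at 12 hpf. The paralogue *eif1b* went the other way, with its lowest value of 898 TPM at 2 hpf, a median of 1870 TPM and its highest value of 3365 TPM at 11.5 hpf. In each gene the early and late windows did not overlap, in either condition. The UIC differences were -1.46 ± 0.16 (SE) for *eif1*, with an adjusted p of 6.05e-08, and 1.36 ± 0.13 for *eif1b*, with an adjusted p of 5.18e-09. The share of *eif1b* in the sum of both was 25.95% ± 4.51 (SD, 7 time points) early and 70.4% ± 8.66 late in UIC, and *eif1b* first exceeded *eif1* at 9 hpf in UIC and at 8.5 hpf in MO. With scaling by median ratios the fall of *eif1* in UIC did not reach the minimum of 1.

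Among other factors of the small subunit and of subunit joining, *eif5*, *eif5a* and *eif2s3* rose and *eif6* fell in UIC. The GTPase-activating protein of eIF2, *eif5*, held between 146 and 171 TPM in the early UIC libraries and between 454 and 887 TPM in the late ones, without overlap, and its difference was 2.09 ± 0.18 (SE, adjusted p = 1.67e-09). The translation factor *eif5a*, which helps ribosomes through difficult peptide bonds, rose from 232.3 ± 52.2 to 589 ± 26.3 TPM, a 2.53-fold change. *eif6*, which binds the large subunit and keeps it from joining too early, fell from 337 ± 20.4 to 130 ± 22.5 TPM. The alpha subunit of eIF2, *eif2s1*, was at 288 ± 17.5 TPM early and 463 ± 24.9 TPM late, a difference of 0.68 that was under the minimum of 1, and the gamma subunit *eif2s3* was at 114 ± 12.4 and 236 ± 26.6 TPM, a difference of 1.05 that was called. Without the 2 hpf library *eif2s3* was no longer called. With median ratios *eif2s1* was called higher too (1.17, limma, adjusted p = 1.98e-08), so the contrast between these 2 subunits depended on the scaling.

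**Figure D2:**
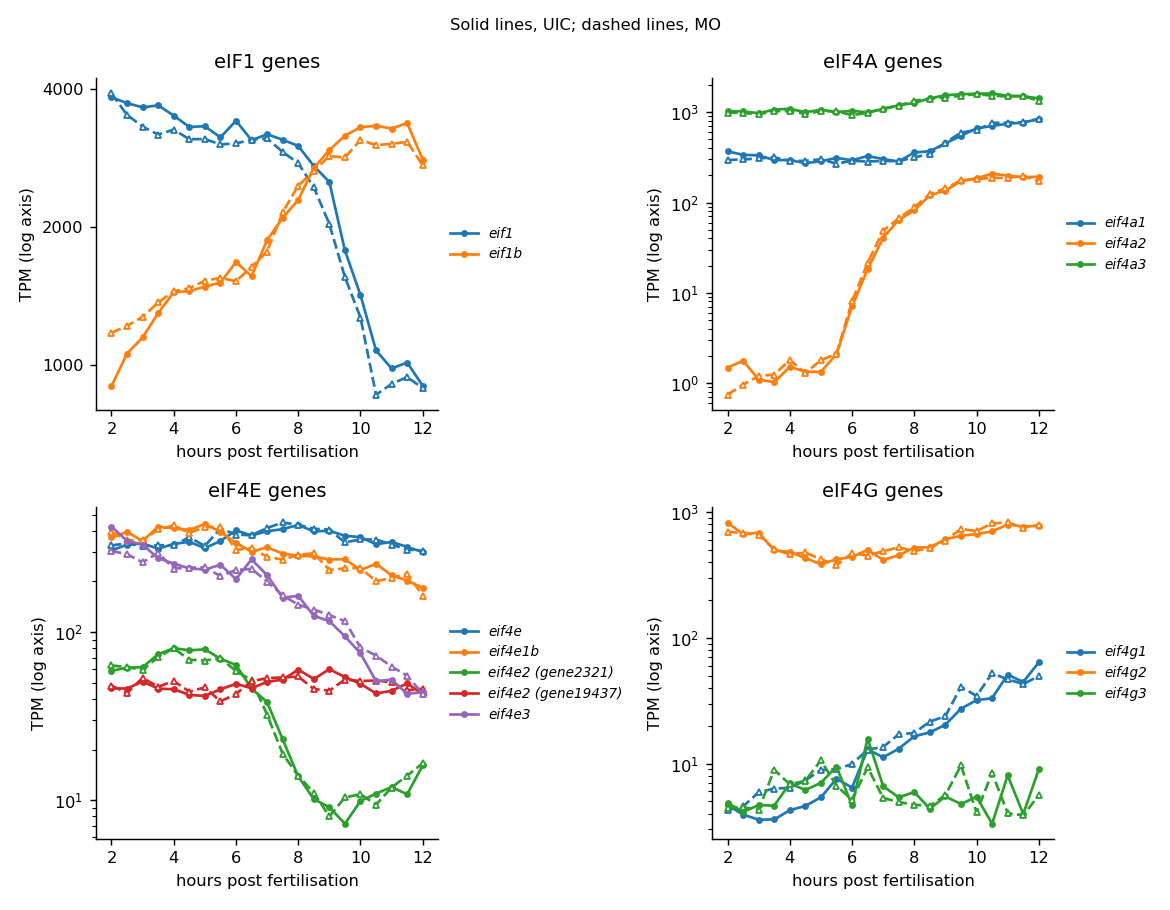
TPM of paralogous initiation factor genes (log y axes) against hours post fertilisation, with 1 marker per library, UIC as solid lines and MO as dashed lines. *eif1* and *eif1b* cross near 9 hpf, *eif4a2* climbs from near 1 TPM to 208.7 TPM in UIC, and *eif4e3* and *eif4e2* (gene2321) fall while *eif4e* and *eif4g2* keep high levels throughout.

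Of the 5 rows of the cap-binding eIF4E family, 2 were called lower in UIC, *eif4e3* and 1 of the *eif4e2* rows, and none higher. Of all genes, 26.4% were called lower and 16.7% higher, and so few rows cannot be told apart from these shares. The main cap-binding protein gene *eif4e* stayed between 298.6 and 433 TPM in the 21 UIC libraries, with a median of 343.98 TPM and a window difference of 0.09 (adjusted p = 0.218). *eif4e1b*, a germline form that is known to repress stored mRNAs in *Xenopus* oocytes, went from 398 ± 32.2 to 233.2 ± 34.0 TPM in UIC, a difference of -0.78 whose windows did not overlap. Both differences depended on the scaling. With median ratios that of *eif4e* was 0.58 (limma, adjusted p = 7.6e-07) and that of *eif4e1b* -0.29 (adjusted p = 0.00098), both under the minimum of 1 in size. *eif4e3* had its highest UIC level of 424 TPM at 2 hpf, a median of 206.5 TPM and its lowest level of 42.9 TPM at 11.5 hpf, with a difference of -2.20 ± 0.22 (SE, adjusted p = 1.23e-08). Of the 2 rows named *eif4e2*, a cap-binding form known from mammals as a repressor, gene2321 fell from 70.4 ± 9.35 to 10.9 ± 2.77 TPM while gene19437 was at 45.6 ± 3.01 and 49.0 ± 6.35 TPM. The difference was -2.61 for the former and 0.10 for the latter, and the files do not say how reads shared by these rows were divided. The share of *eif4e* in the summed TPM of the 5 rows went from 28.6% to 49.3% and that of *eif4e3* from 26.3% to 9.29%, while *eif4e1b* held 35.0% and 32.9%.

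Among the scaffold genes of the eIF4G family, *eif4g1*, which links the cap-binding protein to eIF3, had the second largest rise of all members. It was at 3.58 to 5.38 TPM in the early UIC libraries and at 20.4 to 63.7 TPM in the late ones, without overlap, a difference of 2.83 ± 0.23 (SE, adjusted p = 1.03e-09) and a 9.06-fold change. *eif4g2*, known as DAP5 and lacking the site for eIF4E, accounted for 98.1% of the summed TPM of *eif4g1*, *eif4g2* and *eif4g3* at 2 to 5 hpf and for 94.2% at 9 to 12 hpf. It was lowest near 5 hpf, with an early mean of 567 ± 160 TPM and a late mean of 709 ± 72.4 TPM, and its windows overlapped.

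All 13 eIF3 genes had a positive UIC difference, from 0.43 for *eif3j* to 2.64 for *eif3b*, with a median of 1.04. This median was 1.12 with ERCC scaling and 1.52 with median ratios. The UIC median of all genes moved from -0.26 to -0.20 and to 0.13, respectively. Both scalings thus moved UIC differences upward and could not test whether the positive signs hold. Factor eIF3 is the large scaffold that bridges the small ribosomal subunit and the mRNA. Of these genes 7 were called higher in UIC and 8 in MO, none was called lower in either, and in 11 of 13 the UIC windows did not overlap. Of all genes, 16.7% were called higher in UIC and 16.5% in MO, and 26.4% and 27.3% lower. The late UIC values lay all above the early ones in 21.4% of all genes. The highest value of each of the 13 fell in the late window in both conditions, while 42 of all 85 members had their UIC maximum there. The share of all genes with a maximum in this window was not counted, so whether these counts are unusual was not tested. *eif3b*, a core subunit, was at 34.5 to 77.6 TPM in the early UIC libraries and at 247 to 426 TPM in the late ones (2.64 ± 0.20, SE, adjusted p = 6.51e-10). Its partner *eif3i* rose from 139 ± 54.3 to 392 ± 31.6 TPM and *eif3g* from 159 ± 13.6 to 434 ± 78.9 TPM, and both were called. *eif3a*, the largest subunit, had the lowest mean of the 13 in each window and went from 28.2 ± 7.05 to 59.7 ± 17.2 TPM (1.04, adjusted p = 2.07e-05), a call lost without the 4.5, the 11 or the 12 hpf library. The summed eIF3 level went from 2124 ± 141 to 4167 ± 461 TPM in UIC, a ratio of 1.96, and from 2231 ± 128 to 4303 ± 497 TPM in MO, a ratio of 1.93. The coefficient of variation among the 13 subunits was 65.0% in the early and 46.2% in the late UIC window, and 61.4% and 43.9% in MO.

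**Figure D3:**
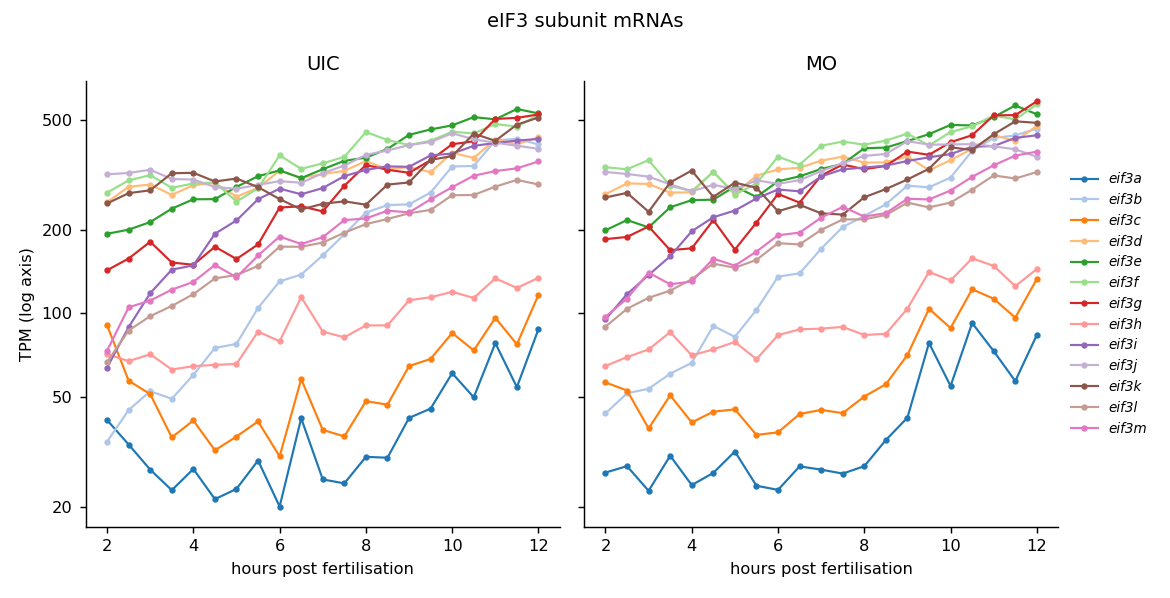
TPM of the 13 eIF3 subunit genes (log y axis) against hours post fertilisation in UIC (left) and MO (right), 1 marker per library. Every subunit reaches its highest level at 9 to 12 hpf, and *eif3a*, *eif3c* and *eif3h* stay below the others in the late window.

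Without scaling, genes that restrain or recharge eIF2 were called lower or did not pass the test. All 4 eIF2 kinases, which phosphorylate eIF2 under different stresses, had a negative UIC difference, and *eif2ak3* and *eif2ak1* were called lower. Of all genes 26.4% were called lower, and their median difference was -0.26. With median ratios 1 of the 4, *eif2ak4*, had a positive difference. *eif2ak3*, known as PERK, was highest at 109 TPM at 2 hpf and lay between 36.1 and 109 TPM in the early UIC libraries and between 5.57 and 9.60 TPM in the late ones, a difference of -2.82 ± 0.27 (SE, adjusted p = 6.37e-09). *eif2ak1*, known as HRI, fell from 120 ± 10.8 to 31.1 ± 16.6 TPM, a difference of -2.05. The summed level of the 4 kinases went from 276 ± 30.9 to 95.1 ± 26.4 TPM. Without scaling, none of the 5 subunit genes of eIF2B, the exchange factor that reloads eIF2 with GTP, was called in either condition. Their UIC differences ranged from -0.66 to 0.57. With median ratios *eif2b1* was called higher in UIC (1.03, limma, adjusted p = 0.000774). The UIC median of the 5 then went from -0.18 to 0.28.

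Synthetase genes of both compartments were called higher and lower late in UIC, beside 16.7% of all genes called higher and 26.4% lower. Of the 20 cytoplasmic genes, 2 were called higher and 1 lower in UIC, with a median difference of 0.12. The UIC maximum lay at 5.5 to 8.5 hpf for 10 of the 20, beside 27 of all 85 members. The share of all genes with a maximum at those times was not counted. Of the 16 mitochondrial genes tested, 1 was called higher and 6 lower, with a median of -0.70 beside -0.26 for all genes. With median ratios 9 of these 16 were negative in place of 13, 4 were called lower, and the median was -0.31. The summed level of the cytoplasmic genes was 1110 ± 68.5 TPM in the early and 1249 ± 51.5 TPM in the late UIC window, while that of the mitochondrial genes, 351 ± 16.7 and 148 ± 25.5 TPM, had a ratio of 0.423. In MO the mitochondrial ratio was 0.436. A large part of the early mitochondrial sum in UIC, and of its fall, came from the single gene *pars2*, whose levels are given below. These ratios therefore do not describe a typical gene of the set. The difference between these sets of genes was not tested.

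The prolyl-tRNA synthetase of mitochondria, *pars2*, was the most abundant of its set in the early embryo and had the largest fall of all members. Its UIC level was 179 TPM at 2 hpf, ranged from 135 to 179 TPM in the early libraries and from 3.82 to 18.8 TPM in the late ones, and the difference was -4.42 ± 0.33 (SE, adjusted p = 6.63e-10). In MO it was -4.39 ± 0.31. *mars2*, for methionine, fell from 12.7 ± 1.96 to 1.89 ± 1.18 TPM, a difference of -2.32 ± 0.24 (adjusted p = 1.75e-08). The only mitochondrial gene called higher in UIC was *yars2*, for tyrosine, which rose from 9.79 ± 0.94 to 30.7 ± 5.61 TPM without overlap, a 3.13-fold change. Of the 16 mitochondrial genes, 3 had a positive UIC difference and 9 were not called. Among cytoplasmic genes, *cars*, for cysteine, rose from 12.4 ± 3.82 to 48.2 ± 9.84 TPM (1.896 ± 0.166, adjusted p = 2.60e-09), *rars*, for arginine, from 11.5 ± 5.99 to 27.6 ± 1.59 TPM, and *iars*, for isoleucine, fell from 44.8 ± 2.62 to 17.3 ± 6.12 TPM. Under scaling by median ratios, *iars*, *eif6*, *rars2* and *wars2* did not reach the minimum difference of 1 in UIC.

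The second comparison was between MO and UIC over the whole time course, with each MO library set against the UIC library of its time point. Differences were small next to the largest changes over development, and more members were higher than lower in MO. For *eif5b*, *eif2a* and *aars* the mean MO minus UIC difference exceeded the UIC window change in size. The values were 0.68 beside -0.56, 0.24 beside 0.02 and 0.25 beside 0.11. By a Gaussian process (GP) test, which fits a smooth curve to each condition and to both together and calls a gene where the log-likelihood ratio (LR) exceeds 0, 7 of 85 members were increased in MO (8.24%) and 3 decreased (3.53%). Of all genes tested, 5.21% were increased and 2.00% decreased. By a paired limma test on log2(TPM + 1), 24 members were higher (28.2%) and 6 lower (7.06%), while 10.4% of all genes were higher and 5.21% lower. In this and the other comparisons with all genes, the genes were not matched to the members in level. Whether the shares differ from those of genes at similar levels was not tested. The median difference of the members was 0.03 and that of all genes 0.01. By role, 7 of 13 eIF3 genes, 9 of 20 cytoplasmic synthetases, 3 of 4 genes of eIF2 and eIF2-like factors and 1 of 16 mitochondrial synthetases were higher, and only 8 of the 30 limma calls had a difference of at least 0.2 in size. With scaling by median ratios 15 members were higher and 9 lower, and with scaling by ERCC spike-ins 34 were higher and 1 lower. The members higher under these scalings were 3 and 7 of the eIF3 genes and 5 and 14 of the cytoplasmic synthetases, respectively. Of the 15011 genes tested, 1561 were higher and 782 lower without scaling. With median ratios 1208 and 1141 were, and with ERCC spike-ins 2781 and 61. The member counts thus moved in the same direction as those of all genes. Without the block for time point 1 member was higher and 0 lower, beside 48 and 3 of all genes. The paired p-values treat the 21 time points as independent, which neighbouring time points of one series of embryos may not be.

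**Figure D4:**
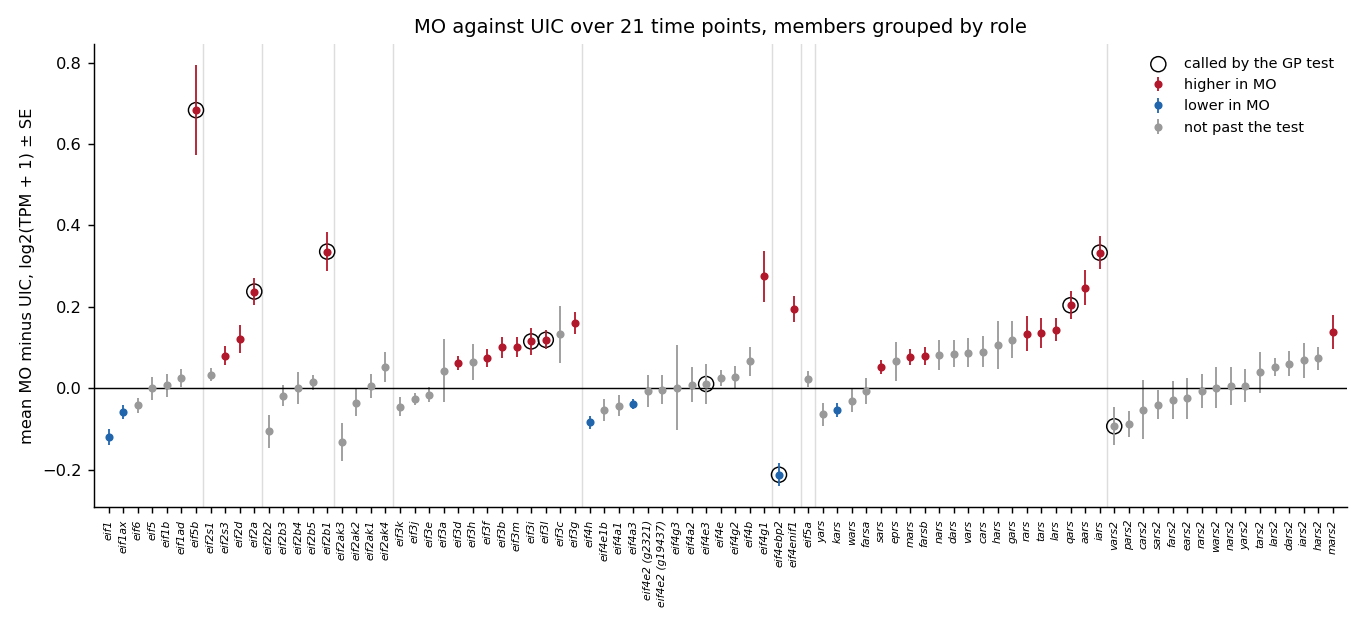
Mean MO minus UIC difference of log2(TPM + 1) over 21 time points with its standard error (y axis) for 85 members, ordered along the x axis by role and by size within it. Red and blue points passed the paired limma test, circled points were called by the GP test, and *eif5b* stands above all others at 0.68.

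The largest difference was that of *eif5b*, the GTPase that joins the large ribosomal subunit. In UIC its level was 41.0 TPM at the lowest, 118 TPM at the median and 264 TPM at the highest, and in MO it was 84.7, 188 and 261 TPM. It was higher in MO at 19 of 21 time points, with 264 TPM in UIC and 261 TPM in MO at 2 hpf, and with 145 and 123 TPM at 12 hpf, and the conditions overlapped in range. The mean difference was 0.68 ± 0.11 (SE, n = 21 pairs), with an adjusted p of 0.000206 by limma and an LR of 11.7. UIC levels of *eif5b* jumped between neighbouring time points, for example from 137 TPM at 8.5 hpf to 41.0 TPM at 9 hpf and 118 TPM at 9.5 hpf, whereas MO levels were 208.9, 202 and 153 TPM. Leaving out 1 time point at a time kept the mean difference between 0.60 and 0.73, and both calls held under all scalings. The windows gave 0.65, 0.74 and 0.66.

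The isoleucyl-tRNA synthetase *iars* was higher in MO at 21 of 21 time points, by 0.33 ± 0.04 (SE, adjusted p = 2.02e-05, LR 8.92). Its level was 11.5, 42.9 and 58.1 TPM at the lowest, median and highest in UIC and 17.6, 50.9 and 66.8 TPM in MO. The level fell after 7 hpf in both conditions, and at 9 to 12 hpf it averaged 17.3 ± 6.12 TPM in UIC and 24.8 ± 6.32 TPM in MO, with overlapping ranges. The difference was 0.26 in the early and 0.52 in the late window. Without scaling, the change between windows did not pass the limma test (0.26 ± 0.08, adjusted p = 0.0669). It passed with median ratios (0.30, adjusted p = 0.0253) and did not with ERCC scaling (adjusted p = 0.388).

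Glutaminyl-tRNA synthetase, *qars*, differed by 0.20 ± 0.03 (SE, adjusted p = 0.000270, LR 4.27). At 2 to 5 hpf it was higher in MO at 3 of 7 time points, with 61.8 ± 7.11 TPM in UIC and 64.3 ± 6.599 TPM in MO. At 9 to 12 hpf it was higher at 7 of 7, with 46.5 to 56.6 TPM in UIC and 57.7 to 70.5 TPM in MO, ranges that did not overlap. The difference grew by 0.26 ± 0.07 between the windows (limma, adjusted p = 0.0290), and this call was lost when any of 7 single time points was left out, with adjusted p up to 0.0643. *aars*, for alanine, was higher at 20 of 21 time points by 0.25 ± 0.04 (adjusted p = 0.000308), but its LR was -1.62. This depended on the settings of the GP test. The LR was 1.74 with the mean subtracted and 0.65 with median ratios, both calls of increased, and -2.56 with ERCC scaling.

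In mammals the products of 8 of the cytoplasmic synthetase genes, *dars*, *eprs*, *iars*, *kars*, *lars*, *mars*, *qars* and *rars*, sit in one multisynthetase complex. Of these genes 5 were higher in MO by limma, *iars*, *qars*, *lars* (0.14), *rars* (0.13) and *mars* (0.08), *kars* was lower by 0.05, and *dars* and *eprs* did not pass the test. Of all genes 10.4% were higher and 5.21% lower. With median ratios *mars* and *rars* did not pass. The calls of *rars* and *kars* were also lost when single time points were left out, 6 and 12 of them in turn.

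The genes *eif2b1* and *eif2a* were increased in MO by both tests. *eif2b1*, the alpha subunit of eIF2B, was 3.64, 19.01 and 29.8 TPM at the lowest, median and highest in UIC and 7.26, 23.8 and 32.2 TPM in MO. It was higher in MO at 20 of 21 time points, by 0.34 ± 0.05 (SE, adjusted p = 8.63e-05, LR 6.68). *eif2a*, a protein that can deliver tRNA to the ribosome apart from eIF2, was 19.9, 37.8 and 50.5 TPM in UIC and 26.9, 44.0 and 57.9 TPM in MO. It was higher at 21 of 21 time points, by 0.24 ± 0.03 (adjusted p = 4.73e-05, LR 6.42). Without scaling, the other 4 subunit genes of eIF2B did not pass either test. With median ratios 1 of these 4 was called lower by limma. Of the eIF2 subunits *eif2s3* was higher by 0.08 (adjusted p = 0.0199), which did not pass with median ratios, while *eif2s1* had a difference of 0.03.

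Among eIF3 genes, *eif3i* (LR 7.13) and *eif3l* (LR 5.09) were increased by the GP test, and both differed mostly in the first hours. *eif3i* was at 63.7 TPM in UIC and 95.2 TPM in MO at 2 hpf and at 426 and 439 TPM at 12 hpf. Its difference was 0.29 at 2 to 5 hpf, with MO higher at 7 of 7 time points, and 0.01 at 9 to 12 hpf, with 3 of 7. The decrease of 0.28 ± 0.05 passed the test (adjusted p = 0.00569), and did not with ERCC scaling (adjusted p = 0.196). *eif3l* went from 0.22 to 0.06, a change that did not pass (adjusted p = 0.0612). By limma *eif3b*, *eif3d*, *eif3f*, *eif3g* and *eif3m* were higher too, by 0.06 to 0.16, and the call of *eif3f* was lost without the 3, the 7 or the 7.5 hpf pair. With median ratios *eif3d*, *eif3f*, *eif3i* and *eif3m* did not pass limma. The GP calls of *eif3i* and *eif3l* were both lost under ERCC scaling and under median ratios.

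*eif4g1* was higher in MO at 16 of 21 time points, by 0.27 ± 0.06 (SE, adjusted p = 0.00359), with 4.29 ± 0.65 TPM in UIC and 6.24 ± 1.58 TPM in MO at 2 to 5 hpf, but it was not called by the GP test (LR -0.89). With the mean subtracted it was called increased, by an LR of only 0.26. It was not called with ERCC scaling (LR -1.99) or with median ratios (LR -1.21). The other reference genes, *eif4e*, *eif4e1b*, *eif4a1*, *eif3a*, *eif5a*, *eif6* and *eif2s1*, were called by neither test without scaling. With ERCC scaling *eif5a* (0.09, adjusted p = 0.0430) and *eif2s1* (0.10, adjusted p = 0.0248) were called higher by limma, as were 2781 of all 15011 genes.

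**Figure D5:**
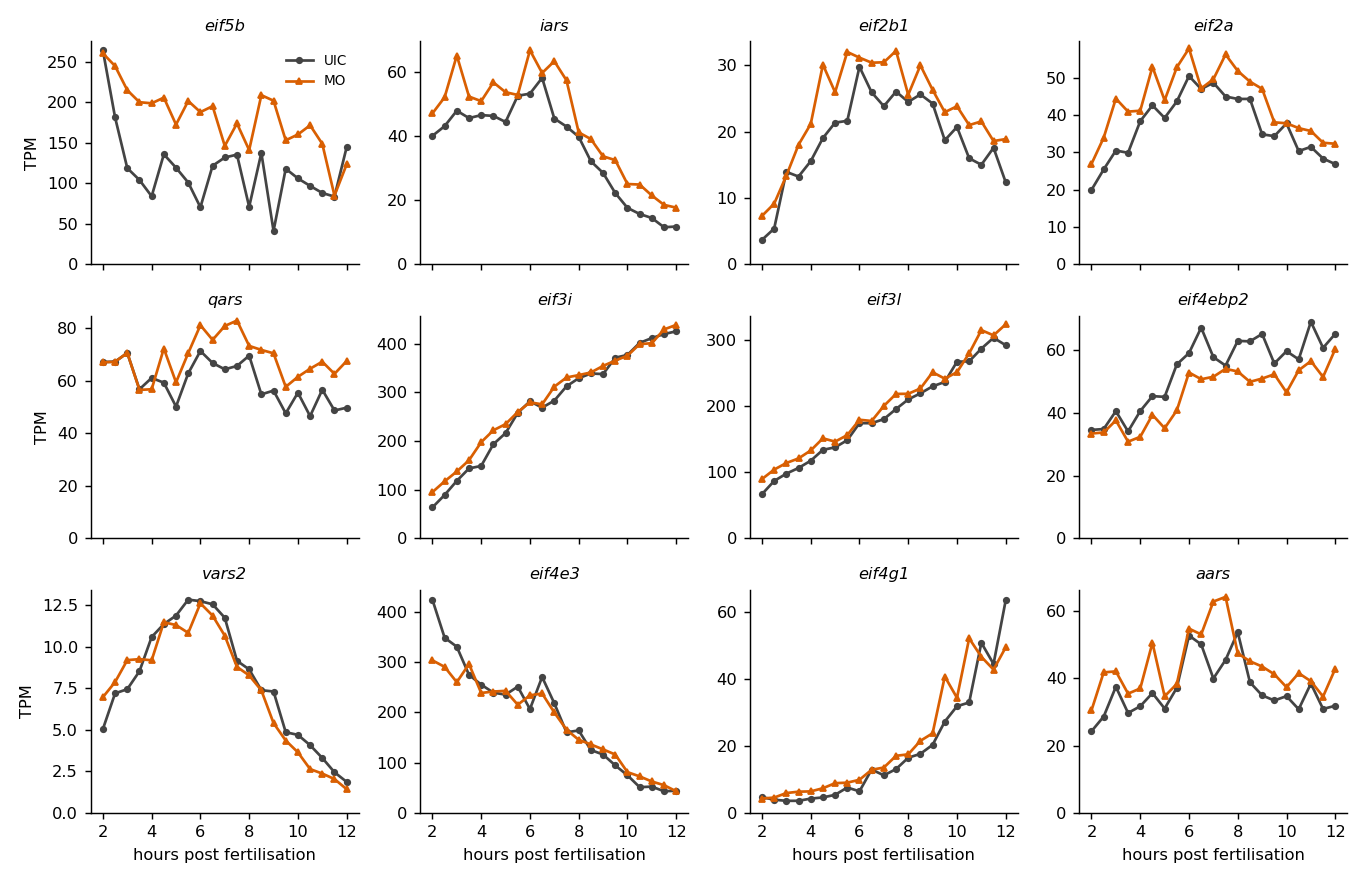
TPM in UIC (grey circles) and MO (orange triangles) against hours post fertilisation for 12 members, 1 marker per library. *eif5b* and *iars* lie higher in MO over most of the time course, *eif4ebp2* lies lower at all 21 time points, and *eif3i* and *eif3l* differ mainly before 6 hpf.

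The decreased members were led by *eif4ebp2*, whose protein binds eIF4E and blocks its contact with eIF4G. It was lower in MO at 21 of 21 time points, with 34.1, 57.0 and 69.0 TPM at the lowest, median and highest in UIC and 30.8, 50.7 and 60.3 TPM in MO. The difference was -0.21 ± 0.03 (SE, adjusted p = 3.93e-05, LR 3.60), and in the 3 windows it was -0.17, -0.25 and -0.22. With ERCC scaling it was -0.15 and stayed past limma's threshold, while the GP call was lost. *eif4enif1*, another eIF4E-binding protein that takes mRNAs to granules, differed in the other direction, by 0.19 ± 0.03 (adjusted p = 0.000228), and was higher in MO at 18 of 21 time points.

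The abundant *eif1* was lower in MO by 0.12 ± 0.02 (SE, adjusted p = 0.000222) and higher at 2 of 21 time points, but its LR was -2.06 and the limma call was lost with ERCC scaling. With the mean subtracted its LR was 1.21, a GP call of decreased. With ERCC scaling the LR was -14.6 and with median ratios -3.40. *eif1ax*, *eif4h*, *eif4a3* and *kars* were lower by 0.04 to 0.08, the call of *eif4a3* was lost when any of 11 single time points was left out, and none of these 4 kept its call under ERCC scaling, where the differences of *eif1ax*, *kars* and *eif4a3* turned to 0.01, 0.01 and 0.03.

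The difference between conditions itself changed between the early and the late window for 6 members, 2 toward higher values in MO and 4 toward lower values, against 1.09% and 2.49% of all genes. Besides *qars* and *eif3i* these were *eif4e3*, *vars2*, *eif1b* and *rars*. *eif4e3* was lower in MO early, by 0.15, with 301 ± 69.8 TPM in UIC and 267.6 ± 28.4 TPM in MO, and higher late, by 0.23, with 67.8 ± 28.3 and 79.4 ± 31.1 TPM. The change of 0.37 ± 0.09 had an adjusted p of 0.0304, and the 2 hpf libraries, 424 TPM in UIC and 304 TPM in MO, held the largest early gap. *vars2*, the mitochondrial valyl-tRNA synthetase, was higher in MO at 5 of 7 early time points and at 0 of 7 late ones, and its difference changed by -0.39 ± 0.09 (adjusted p = 0.0140). *eif1b* was higher at 7 of 7 early and 0 of 7 late time points (-0.23 ± 0.05, adjusted p = 0.0148). *rars* was higher by 0.33 early and 0.03 late (-0.30 ± 0.08, adjusted p = 0.0354). With ERCC scaling no member passed this test, and with median ratios *eif1b* (adjusted p = 0.128) and *rars* (adjusted p = 0.0892) did not. With median ratios *iars* (0.30, adjusted p = 0.0253) and *eif5* (0.22, adjusted p = 0.0404) passed in addition, both toward higher values in MO. Few genes of any kind passed with ERCC scaling. Of all 15011 genes, 19 were then higher and 12 lower, in place of 163 and 374. The GP test called *eif4e3* and *vars2* decreased with LRs of 0.13 and 1.31, and limma called neither. The *eif4e3* call was lost when any of 13 single time points was left out and that of *vars2* when any of 4 was.

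Lists of partner genes were read from the same fits. Of 8 elongation and release factor genes tested, 5 were higher in MO by limma and none lower, beside 10.4% and 5.21% of all genes, with a median difference of 0.10 beside 0.01 for all genes. They were *eef1a1* (0.22), *eef1b2* (0.15), *eef1g* (0.12), *eef1a1o* (0.12) and *gspt1* (0.07), and *eef1b2* was the only one called by the GP test (LR 1.21). The 2 rows of eEF1A, which carries charged tRNAs to the ribosome, also had the largest rises of this list over development, *eef1a1* from 380 to 6502 TPM and *eef1a1o* from 578 to 9608 TPM in UIC. Among the 3 multisynthetase scaffold genes, *eef1e1* was lower in MO by 0.09 and fell from 306 to 123 TPM in UIC.

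The transcription factor gene *atf4*, whose protein induces synthetase and amino acid synthesis genes when eIF2 is phosphorylated, rose from 7.69 to 119 TPM in UIC and from 6.96 to 118 TPM in MO. Its MO minus UIC difference was -0.05 (adjusted p = 0.482). Of the 17 genes tested from the list of *atf4* and its targets, 2 were higher in MO and none lower by limma, *mthfd2* (0.11) and *aldh18a1* (0.14), and the GP test called *mthfd2* and *pck2* increased. The median of the list was 0.01, as for all genes. The limma calls of the list, 2 of 17 higher, stood beside 10.4% of all genes higher and 5.21% lower. The GP calls of the list, 2 of 17, stood beside 5.21% of all genes increased. Without scaling, the MO minus UIC difference was higher late than early by limma for 2 of the 17 and lower for 0. Of all genes, 1.09% were higher and 2.49% lower in this test.

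Of 10 partners of the cap and the poly(A) tail, 5 were called lower and 1 higher in UIC over development, with a median of -1.33, beside 26.4% of all genes called lower, 16.7% higher and a median of -0.26. The fall of *cpeb1*, a regulator of maternal poly(A) tails, was from 144 to 2.95 TPM, and the others called lower were *pabpc1l*, *lsm14b*, *patl2* and *cpeb4*, while *pabpc4* rose from 1.83 to 6.14 TPM. In MO against UIC, *ddx6* (0.16) and *cpeb4* (0.13) were higher. Of 11 genes of mTOR and MNK signalling, *mtor* (0.21) and *mknk2* (0.12) were higher in MO and *mknk1* (-0.11) and *rheb* (-0.05) lower, beside 10.4% of all genes higher and 5.21% lower, and none was called by the GP test. Over development in UIC, *mknk1*, one of the kinases of eIF4E, fell from 97.1 to 7.80 TPM while its paralogue *mknk2* rose from 16.7 to 42.3 TPM, and *rptor* fell from 22.2 to 5.74 TPM while *rps6kb1* rose from 24.9 to 71.1 TPM.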

How the data were processed

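Polyadenylated RNA of whole embryos was measured in 42 libraries, 21 UIC and 21 MO, grouped by the sample labels. The deposited values are TPM per gene, which the authors obtained with RSEM after STAR alignment of strand-specific read pairs to a combined reference of Xt9.1 and the ERCC sequences. Whether the deposited values carry the dinucleotide correction described in the methods was not tested. The 42 ribozero samples were not analysed here, since the table named for them is identical to the polyA+ table, and which kind of library the shared values come from was not settled. TPM keep no counts, so depth and counting error are unknown.

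GP fits followed the study's methods, with values divided by the gene's maximum, times 1000, plus 1, and square-root transformed, a Matern 5/2 kernel and normal priors on the log amplitude, length scale and noise. In the fits made here these priors had means 3, 2 and 0 and SDs 2, 4 and 4. The GP mean of 0 was a choice made here. LRs differed from those of a continuous optimiser by at most 0.467 over 30 genes, which is more than the LR of *eif4e3*. Paired limma 3.58.1 (R 4.3.3) used log2(TPM + 1), with time point as the block because the labels give both conditions the same times, a variance trend and Benjamini-Hochberg adjustment over 15011 genes. Window tests were two-sided limma contrasts, and changes between windows were tested on paired differences. In simulated data, 99 of 100 genes changed 1.5-fold were called by each of the GP and paired limma tests. Of 14811 unchanged genes, 1.26% and 0.0945% were called, respectively. The changed genes were drawn only from those above a minimum mean TPM and were shifted alike at every time point. Changes in genes at low levels and differences limited to a few hours were therefore not covered. Whether these rates hold for the measured values, where neighbouring time points may not be independent, was not tested.

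The members, gene lists and tests were chosen with earlier results of these data known. Members named are those called by the GP test, the 5 largest rises and falls over UIC windows, the 3 highest and lowest mean levels, the 5 largest limma differences, those whose difference changed between windows and fixed reference genes. Others are named to complete a group of related genes and were chosen after their values were seen. Lists covered elongation and release factors, multisynthetase scaffolds, *atf4* and its targets, cap and poly(A) partners, and mTOR and MNK signalling. Alternatives covered the LR threshold, priors, centring, filter, pseudocount, scaling, pairing and single time points. No genome or sequence was used. Python 3.11.15, numpy 2.4.6 and scipy 1.17.1 were used.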

Additional observations from a re-analysis of the deposited data

Results flagged for a closer look

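The difference between MO and UIC differed between the early and the late window for 6 members by limma on paired differences. It was higher late by 0.37 for *eif4e3* and by 0.26 for *qars*. It was lower late, with a change of -0.39 for *vars2*, -0.30 for *rars*, -0.28 for *eif3i* and -0.23 for *eif1b*. Over single time points left out, adjusted p reached at most 0.0171 for *eif3i*, 0.0350 for *vars2* and 0.0392 for *eif1b*, and up to 0.0643 for *qars*, 0.0694 for *eif4e3* and 0.0760 for *rars*. With ERCC scaling none of the 6 passed (adjusted p from 0.163 to 0.397), and with median ratios *eif1b* (adjusted p = 0.128) and *rars* (adjusted p = 0.0892) did not pass. With median ratios *iars* (0.30, adjusted p = 0.0253) and *eif5* (0.22, adjusted p = 0.0404) were called higher late in addition. With ERCC scaling, 19 of all 15011 genes were higher and 12 lower, in place of 163 and 374.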

How the results depend on the processing

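By the GP test, members increased numbered 7 and rose to 15 with the mean subtracted. The 3 decreased became 1 with an LR over 3, 0 with log priors added, 9 with the mean subtracted and 0 with ERCC scaling. Leaving out 1 time point gave 1 to 4, with 1 without 11 hpf. *eif5b*, *eif2a*, *eif2b1* and *iars* kept the GP call under every alternative run. By paired limma, the 24 higher members became 15 with median ratios and 1 without the block for time point, and the 6 lower became 1 with ERCC scaling and 0 without the block. Among all genes, the 1561 higher became 1208 with median ratios and 48 without the block. The 782 lower became 61 with ERCC scaling and 3 without the block. Between windows with no minimum on the difference, 38 members were higher and 25 lower in UIC, and 39 and 26 in MO. The counts of all 15011 genes were 4514 and 7199 in UIC, and 4515 and 7427 in MO. With median ratios, 30 members were higher and 8 lower in UIC, and 31 were higher in MO. All genes then gave 3430 higher and 2680 lower in UIC, and 3449 higher in MO. Changes of the difference between windows gave 0 higher and 0 lower with ERCC scaling, and 4 higher and 2 lower with median ratios. All genes gave 19 higher and 12 lower with ERCC scaling, and 234 and 165 with median ratios. Leaving out 1 time point gave 0 to 3 higher, and 0 without the 2, 2.5, 3 or 10.5 hpf pair, and 3 to 7 lower, with 7 without the 5 hpf pair. Of the 30 members called by paired limma, 3 changed sign with ERCC scaling, *eif1ax* to 0.0097, *kars* to 0.014 and *eif4a3* to 0.028, and none under the other alternatives. Of the 55 not called, 17 changed sign with ERCC scaling, 11 with median ratios and up to 7 under the others. The cause of these changes was not tested. The counts over single time points stayed within 1.5 times the main count for the other 7 results. Unknown depth limits the members near 1 TPM most.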
